A study of Mus musculus with 13 samples.

Results

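The 8 genes described here are members of the subcortical maternal complex of the mouse oocyte, or oocyte genes of the NLRP family that are studied with it. They are Nlrp5, Ooep, Tle6, Khdc3, Padi6, Zbed3, Nlrp2 and Nlrp14, and they were chosen by name from 49585 genes for which reads could be summed. All 8 had reads in each of the 13 libraries and all 8 passed the filter on low counts in every comparison. RNA came from oocytes of CD-1 mice at postnatal day 5 whose cultured ovaries were irradiated with a caesium source. 8 libraries belong to the course of 0.5 Gy, where 0, 1 and 4 h were sequenced in duplicate and 2.5 and 6 h once, and 5 libraries belong to the course of 0.2 Gy, with 1 at each of the same times. The labels count 0 h from the irradiation, whereas the study describes the 0 h samples of 0.5 Gy as taken before it, so whether a 0 h library had received its dose is not settled by the sources used here. At 0.5 Gy, the labels name the first replicate of 0, 1 and 4 h as first generation, and the second replicate together with the 2.5 and 6 h libraries as second generation. All libraries of 0.2 Gy are labelled as the third generation, so that dose and generation cannot be told apart between the courses. What separates the generations (animals, preparation or sequencing) is not stated in the labels, and p-values therefore measure only the spread between these libraries.

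The subcortical maternal complex is a protein assembly under the cell membrane of the growing oocyte and the early embryo. Its core consists of NLRP5 (also called MATER), a leucine-rich repeat protein, the KH-domain protein OOEP (FLOPED) and TLE6, a relative of the Groucho corepressors, and KHDC3 (FILIA), ZBED3, PADI6 and NLRP2 associate with it. The genes are transcribed in the oocyte before it matures, and the stored products are needed for the first cleavages of the embryo. Loss of such maternal effect genes in the mother arrests or impairs her embryos although they may carry a normal paternal copy. At postnatal day 5 most oocytes rest in primordial follicles and few have begun to grow.

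The genes lie on 5 chromosomes of GRCm38. Nlrp5 spans chr7:23385889-23441922 on the plus strand, Nlrp14 spans chr7:107166990-107198102 on the plus strand and Nlrp2 spans chr7:5298547-5351035 on the minus strand. Khdc3 at chr9:73101836-73104438, on the plus strand, and Ooep at chr9:78376109-78378725, on the minus strand, share chromosome 9. Tle6 lies at chr10:81590904-81601073 on the minus strand, Padi6 at chr4:140727355-140742643 on the minus strand and Zbed3 at chr13:95323612-95337841 on the plus strand. Single sequences of 30 bases, the length of a read, did not always separate the genes from their relatives. The study describes paired reads, and the shares below do not take the second read of a pair into account. Of all 30-base sequences in the transcripts of Khdc3, 36.9% also occur in Gm20509, a gene model on the same strand at chr9:73102470-73117920 that runs on from Khdc3. For Nlrp5 the share was 12.9%, mostly with the pseudogene Nlrp5-ps at chr7:14530652-14622479. It was at most 4.13% for Ooep, Nlrp2 and Tle6, and no such sequence of Padi6, Zbed3 or Nlrp14 occurred in another gene.

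The promoters of 3 members held an E-box at the same distance from the RefSeq start, which is not always the start of the span given above. The E-box is the motif that FIGLA, a basic helix-loop-helix factor of oocytes, recognises, and it was searched as CANNTG on both strands of the RefSeq promoters (GRCm38.p6, 250 bases before to 50 after the start). A promoter was listed for 7 of the 8 members, 11 promoters in all, and Nlrp14 was not among them. The RefSeq starts of Ooep (chr9:78378588) and Khdc3 (chr9:73102398) lie inside the spans given above, and so do the bases shown for both. Ooep-201, the only transcript of Ooep, begins at chr9:78378725, before the bases shown. Khdc3-201 and Khdc3-204 begin at the RefSeq start, whereas Khdc3-203 begins at chr9:73101836. In Ooep, Khdc3 and Padi6 the first base of an E-box lay 78 bases before the RefSeq start, a position that was chosen after the matches were seen and at which 0.484% of all 32851 promoters have one. The 30 bases around it are shown 5′ to 3′ on the strand of the gene, with the E-box in capitals:
Ooep, chr9:78378649-78378678, minus strand: acccagcctaccCACTTGcgcggtgcgcgc
Khdc3, chr9:73102308-73102337, plus strand: tctcccccacccCAGGTGcagccagtgagg
Padi6, chr4:140742704-140742733, minus strand: ctcctccaggctCACCTGtgaacccttaac

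An E-box anywhere in the window was common, since 72.3% of all promoters had at least 1. With the first base between 100 and 50 bases before the start, an E-box was present in 4 of the 11 member promoters (Ooep, Khdc3, Padi6 and 1 of 3 of Zbed3) and in 21.3% of all promoters. Elements of NOBOX, a homeobox factor of oocytes, were searched on both strands as well. TAATTG was found in the promoters of Ooep and Padi6 (8.0% of all promoters). The element TAGTTG (6.59%) and the element TAATTA (5.29%) were each found in 1 promoter of Nlrp5, not in the same one. The TATA box TATAAA was found in 1 promoter of Nlrp5 and 1 of Zbed3 (13.6% of all promoters). None of these letters were found in the promoter of Nlrp2. A match is a description of the sequence and not a binding site.

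The libraries held between 15709549 and 30430104 estimated reads, with the smallest number in replicate 2 of 0 h at 0.5 Gy. Values are given as CPM, which are counts scaled to the library size after TMM normalization, and between genes as TPM, which takes transcript length into account. A gene without reads could still have up to 3, which is 0.0990 to 0.192 CPM by library from counting error alone, and the members were above that floor everywhere. The 16 markers of germ cells and oocytes summed to between 1490 and 2174 TPM and all had reads in every library, led by Zp2 (mean 714 TPM), a protein of the egg coat, Sycp3 (284 TPM) of the synaptonemal complex, and Zp3 (197 TPM). The 15 granulosa cell markers also had reads in every library and summed to between 724 and 1262 TPM, led by Amhr2 (519 TPM), Inha (308 TPM) and Wt1 (34.0 TPM). Models with an effective length under 100 bases held most of the TPM of Amhr2 (107 TPM without them) and of Hbb-bs below (664.5 TPM without them), and part of that of Dcn (94.4 TPM without them). The 5 red blood cell markers summed to between 1356 and 8218 TPM (Hbb-bs 2422, Hba-a1 987 and Hba-a2 946 TPM on average), and the 10 stroma and theca markers to between 317 and 521 TPM (Dcn 166, Col3a1 107 and Col1a2 46.3 TPM). Endothelial markers were low, between 8.47 and 18.3 TPM (Pecam1 3.8, Cldn5 3.58 and Cdh5 2.76 TPM), and immune markers lay between 15.0 and 33.9 TPM or higher only in replicate 2 of 0 h at 0.5 Gy (347 TPM, led by S100a8 with up to 184 TPM). Fewer oocytes in a preparation and less RNA per oocyte cannot be told apart in such bulk samples.

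The members differed widely in level, and the order of the highest among them depended on how transcript length was taken into account. Padi6, a member of the peptidylarginine deiminase family, had a median of 1261 TPM and a range of 640 to 2049 TPM, but between 74.8% and 80.9% of this came from Padi6-202, a non-coding model of 256 bases whose effective length in salmon was 23 bases and which held 3.62% to 6.09% of the reads. Without it Padi6 had a median of 272 TPM (161 to 406) and was above Tle6 in 11 of 13 libraries. As CPM per kilobase of the longest transcript, a scale that does not use the split of reads between transcripts, Padi6 had the highest median, 615 (496 to 940), and was above Nlrp14 in all 13 libraries, but Nlrp5 was above it at 0 h of 0.2 Gy (652 against 615) and at 4 h of 0.2 Gy (592 against 582). Both of these scales were chosen after the values were seen. In TPM, Tle6 followed with a median of 231 TPM (130 to 377), Nlrp14 with 144 TPM (123 to 181), Nlrp5 with 91.4 TPM (38.0 to 218) and Ooep with 60.1 TPM (46.6 to 71.8). Zbed3, which is also known as an axin-binding protein, had a median of 34.0 TPM (23.1 to 49.99), Khdc3 of 9.06 TPM (1.78 to 21.2) and Nlrp2 of 1.73 TPM (0.236 to 5.01). The ranges of Padi6 and Tle6 did not overlap in TPM but did without Padi6-202, and those of Zbed3 and Khdc3 did not overlap on any of the 3 scales. The other neighbours in this order overlapped: Tle6 was above Nlrp14 in 11 of 13 libraries, Nlrp14 above Nlrp5 in 11, and Nlrp5 above Ooep in 10, while Ooep was above Zbed3 and Khdc3 above Nlrp2 in all 13. Per kilobase of the longest transcript the order was Padi6, Nlrp14 (median 459.5), Nlrp5 (279), Ooep (176), Tle6 (122), Zbed3 (81.2), Khdc3 (16.3) and Nlrp2 (2.00).

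**Figure D1:**
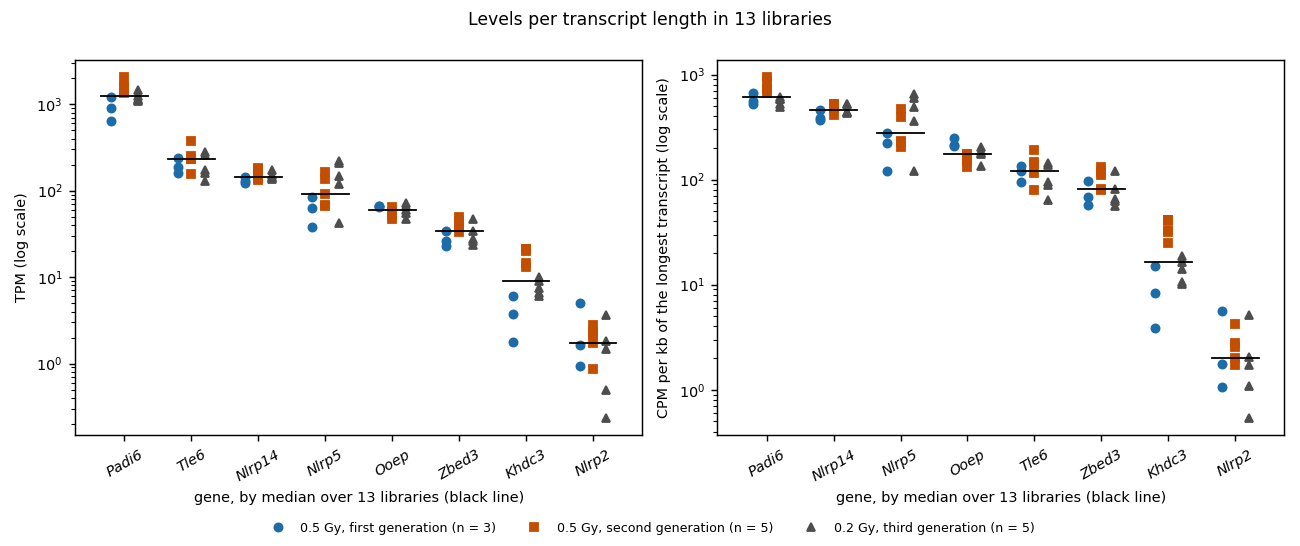
Levels on log axes for each gene in 13 libraries, as TPM (left) and as CPM per kilobase of the longest transcript (right), ordered by the median (black line), with 1 symbol per library coloured by generation. Padi6 has the highest median on both scales, between 640 and 2049 TPM of which most is a single short model and between 496 and 940 CPM per kilobase, and Tle6 moves from second in TPM to below Ooep in the right panel.

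The TPM of Tle6, like that of Padi6, rests on short transcript models. The full-length coding transcripts Tle6-201 and Tle6-210 held at most 0.303% and 5.54% of its reads in any library. Most reads were assigned to the retained-intron and non-coding models Tle6-214 (median 23.8% of its reads), Tle6-207 (15.5%) and Tle6-212 (14.1%) and a further non-coding model (20.7%). The coding fragment Tle6-203 held a median of 12.6%. In Padi6 the full-length Padi6-201 held between 87.8% and 96.4% of the reads, although only 161 to 311 TPM. Ooep has a single transcript. Nlrp5-201, a full-length model, held between 62.3% and 93.3% of the reads of Nlrp5, and Nlrp2-201 between 61.0% and 94.6% of those of Nlrp2. The assignment of reads to overlapping transcripts is an estimate made by salmon and was not observed directly.

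The members varied unequally between libraries. Nlrp14 was among the steadiest of all 28136 genes that passed the filter, with an SD of 0.17 in log2 CPM over 13 libraries, which is larger than the SD of only 2.0% of the genes. Ooep (SD 0.26) and Padi6 (SD 0.28) were also below the median SD of all genes of 0.55, as were Zbed3 (0.42) and Tle6 (0.43). Nlrp5 (0.80), Nlrp2 (0.94) and Khdc3 (1.00) were above it, and Khdc3 varied more than 86.0% of the genes.

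Nlrp5 showed the largest excursions among the abundant members. Its first-generation libraries at 0.5 Gy had 790 CPM at 0 h, 978 CPM at 1 h and 420 CPM at 4 h. The second generation had 823 CPM at 0 h, 711 CPM at 1 h, 1647 CPM at 2.5 h, 803 CPM at 4 h and 1396 CPM at 6 h. At 0.2 Gy, Nlrp5 had 2286 CPM at 0 h, 1270 CPM at 1 h, 424 CPM at 2.5 h, 2078 CPM at 4 h and 1706 CPM at 6 h. The level thus had no common order with time, and the 2.5 h library was the highest of the 0.5 Gy course and the lowest of the 0.2 Gy course. Reads were not scarce, with between 10808 and 79623 for Nlrp5 in each library. The pseudogene Nlrp5-ps was assigned between 0.309 and 51.3 CPM and so held few of the reads.

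Ooep, the KH-domain partner of NLRP5, was more even. It had 531, 456 and 451 CPM at 0, 1 and 4 h in the first generation. In the second generation it had 371 CPM at 0 h, 377 CPM at 1 h, 321 CPM at 2.5 h, 352 CPM at 4 h and 284 CPM at 6 h. Every second-generation library was below every first-generation library. The course of 0.2 Gy lay between 289 CPM at 0 h and 437 CPM at 4 h below every first-generation library, and overlapped the second generation.

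Tle6 had 246, 189 and 273 CPM at 0, 1 and 4 h in the first generation. The second generation had 161 CPM at 0 h, 295 CPM at 1 h, 235 CPM at 2.5 h, 281 CPM at 4 h and 389 CPM at 6 h, the highest value of all libraries. At 0.2 Gy it had 178 CPM at 0 h, 130 CPM at 1 h, 292 CPM at 2.5 h, 277 CPM at 4 h and 193 CPM at 6 h. The lowest 0 h library and the highest 6 h library were both of the second generation at 0.5 Gy.

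Padi6 had 1225, 1301 and 1556 CPM at 0, 1 and 4 h in the first generation and between 1545 CPM (0 h) and 2194 CPM (6 h) in the second. At 0.2 Gy it ranged from 1157 CPM at 1 h to 1435 CPM at 0 h. The second generation was the highest set, and only its 0 h library lay below the highest first-generation library. Nlrp14, an NLRP gene of germ cells, ranged from 1220 to 1504 CPM in the first generation, from 1357 to 1724 CPM in the second and from 1416 to 1728 CPM at 0.2 Gy, so that all sets overlapped.

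Zbed3 had 188 CPM at 0 h, 133 CPM at 1 h and 112 CPM at 4 h in the first generation. The second generation lay between 156 CPM at 2.5 h and 255 CPM at 1 h, and the 0.2 Gy course between 110 CPM at 1 h and 235 CPM at 6 h. Nlrp2 had 19.2 CPM at 0 h, 3.62 CPM at 1 h and 6.02 CPM at 4 h in the first generation. In the second generation it ranged from 5.88 CPM at 2.5 h to 14.4 CPM at 4 h, and at 0.2 Gy from 1.84 CPM at 2.5 h to 17.3 CPM at 6 h. The highest library of Nlrp2 was therefore one of 0 h, where the other replicate had 6.81 CPM. Nlrp2 was counted with 50 to 476 reads in a library, the smallest numbers among the members.

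**Figure D2:**
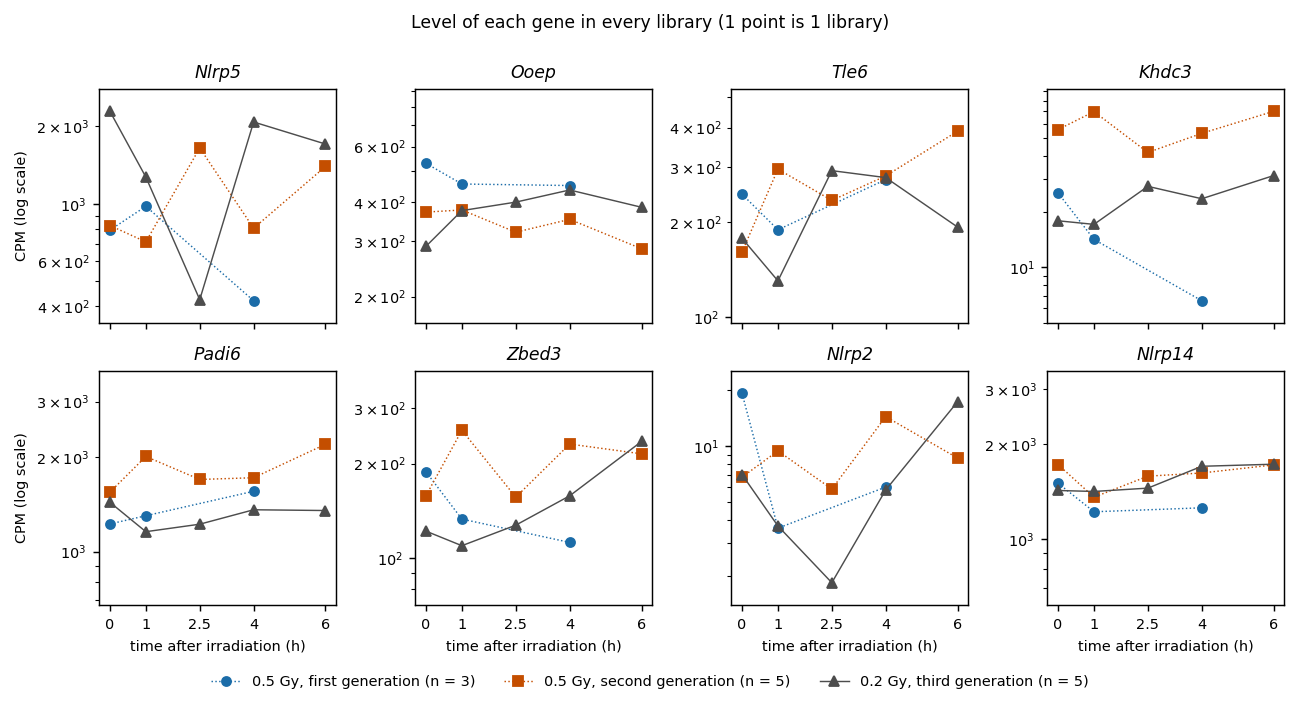
CPM on a log axis against the time after irradiation, 1 panel per gene and 1 symbol per library, with lines joining the libraries of a generation. Khdc3 is higher and Ooep lower in all second-generation libraries than in the first. For Nlrp14 the 1 h library is the lowest in each of the 3 sets, at 0.2 Gy with 1416 against 1426 CPM at 0 h. That order was noticed in the values and carries no test, and the share of all genes that show it was not counted.

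The first question was whether the members changed after 0.5 Gy. A quasi-likelihood model in edgeR, fitted to the 8 libraries together, set the 1, 2.5, 4 and 6 h libraries against 0 h. A call needed an adjusted p (Benjamini-Hochberg) below 0.05 with a log2 fold change beyond 1 in either direction. None of the 8 members was called at 1, 2.5, 4 or 6 h, where 0% of all 28468 genes tested were called as well. DESeq2's Wald test called none of the members either, while it called 0.113%, 0.561%, 0.638% and 0.762% of all genes with an adjusted p at these times. At an unadjusted p under 0.05, 1 member passed at 2.5 h (5.59% of all genes), 1 at 6 h (5.94%) and none at 1 h (3.98%) or 4 h (5.82%). The member at 2.5 h was Nlrp5, with a log2 fold change of 1.02 ± 0.39 (SE; adjusted p = 0.875 in edgeR). The member at 6 h was Tle6, with 0.96 ± 0.36 (SE; adjusted p = 0.817 in edgeR). Both time points have a single library that takes its spread from the duplicates. Each is of the second generation, whereas 0 h holds both generations.

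The duplicates themselves were far apart for some members. At 0 h the mean of Khdc3 was 40.5 ± 21.5 CPM (SD, n = 2), at 1 h it was 41.9 ± 39.3 CPM and at 4 h 29.9 ± 32.9 CPM. Nlrp2 had 13.02 ± 8.78 CPM at 0 h, 6.53 ± 4.11 CPM at 1 h and 10.2 ± 5.92 CPM at 4 h. Nlrp14, in comparison, had 1614 ± 156 CPM, 1289 ± 97.1 CPM and 1438 ± 258 CPM at the same times.

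Pooling the times gave more libraries on a side. The late libraries of 0.5 Gy (2.5, 4 and 6 h, n = 4) were compared with the early ones (0 and 1 h, n = 4), although libraries of different times are not replicates of a condition and 3 of the late but only 2 of the early libraries are second generation. None of the members was called by edgeR or by DESeq2, against 0.128% of the 22588 genes tested in edgeR and 0.948% of 26489 in DESeq2, and none passed an unadjusted p under 0.05 (9.06% of all genes). The smallest p belonged to Tle6, with a log2 fold change of 0.39 ± 0.21 (SE; adjusted p = 0.617 in edgeR). Its early libraries ranged from 161 to 295 CPM and its late ones from 235 to 389 CPM. Ooep had a log2 fold change of -0.32 ± 0.18 (SE; adjusted p = 0.635 in edgeR), with 371 to 531 CPM early and 284 to 451 CPM late. Within each generation every late library of Ooep was below every early one. The first generation had 451 CPM late against 456 and 531 early, and the second 284 to 352 against 371 and 377. This order was noticed in the values and carries no test, and the share of all genes that show such an order was not counted. Padi6 had 0.22 ± 0.18 (SE; adjusted p = 0.754 in edgeR). If any single library was left out, Tle6 lay between 0.23 and 0.56, Ooep between -0.46 and -0.20 and Padi6 between 0.11 and 0.38. The median over the 8 members was 0.05, beside -0.02 over all genes tested, and the levels of no member were separated between early and late libraries (4.84% of all genes were).

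For 0.2 Gy the 4 and 6 h libraries were set against those of 0 and 1 h, with the spread taken from a fit of 11 libraries of both doses. None of the members was called by edgeR or DESeq2 (0.0462% of 28162 genes in edgeR and 0.579% of 25394 in DESeq2), and none passed an unadjusted p under 0.05 (7.29% of all genes). Zbed3 had a log2 fold change of 0.74 ± 0.35 (SE; adjusted p = 0.686 in edgeR), from 110 to 122 CPM early and from 158 to 235 CPM late. Tle6 had 0.58 ± 0.30 (SE; adjusted p = 0.713 in edgeR), from 130 to 178 CPM early and from 193 to 277 CPM late. Leaving out single libraries gave values between 0.43 and 0.98 for Zbed3 and between 0.29 and 0.88 for Tle6. Nlrp2 had 1.07 ± 0.71 (SE; adjusted p = 0.767 in edgeR), from 3.72 to 7.04 CPM early and from 5.81 to 17.3 CPM late, and without the library of 6 h the value was 0.0912. All 8 fold changes had a positive sign, between 0.04 and 1.07, with a median of 0.43 beside -0.03 over all genes. In the same comparison the median was -0.08 for the 16 germ cell and oocyte markers, 0.73 for the 5 red blood cell markers, 0.34 for the 15 granulosa cell markers, 0.25 for the 10 stroma and theca markers, 0.13 for the 5 endothelial markers and 0.12 for the 9 immune markers. Their part in the members' values was not tested. There were only 2 libraries on a side.

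The difference between the doses in late against early was tested in the same fit and called none of the members in edgeR or DESeq2 (0.032% of 28162 genes in edgeR and 0.528% of 25394 in DESeq2), and none passed an unadjusted p under 0.05 (8.14% of all genes). The smallest p belonged to Ooep, whose difference was 0.55 ± 0.31 in log2 (SE; adjusted p = 0.666 in edgeR), from a value below 0 at 0.5 Gy to one above 0 at 0.2 Gy. For Zbed3 the difference was 0.73 ± 0.44 (SE; adjusted p = 0.674 in edgeR) and for Nlrp2 1.11 ± 0.89 (SE; adjusted p = 0.760 in edgeR; 0.122 without the library of 6 h at 0.2 Gy). That of Zbed3 lay between 0.42 and 0.95 when single libraries were left out.

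**Figure D3:**
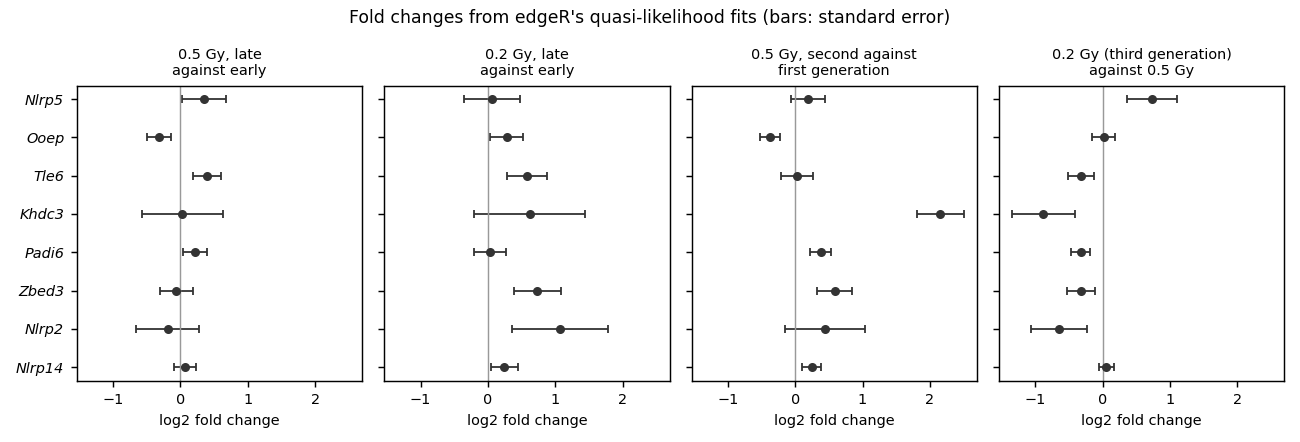
Log2 fold changes with standard errors of the 8 genes in 4 comparisons from edgeR's quasi-likelihood fits. Khdc3 between generations (2.16) stands furthest from 0, and no value passed the call rule.

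The second question was how the members differed between the generations at 0.5 Gy, where 0, 1 and 4 h each have 1 library of both. Khdc3, whose product is also known from genome stability in embryos, differed most. It had 25.2 CPM at 0 h, 14.1 CPM at 1 h and 6.57 CPM at 4 h in the first generation. In the second it had 55.7 CPM at 0 h, 69.7 CPM at 1 h, 41.9 CPM at 2.5 h, 53.1 CPM at 4 h and 70.0 CPM at 6 h. Every second-generation library was above every first-generation library, and replicate 2 exceeded replicate 1 by 2.21 times (0 h), 4.93 times (1 h) and 8.09 times (4 h). These values rest on 625, 347 and 169 reads in the first generation and on 843 to 1850 in the second. The 0.2 Gy libraries lay below the second generation, from 17.0 CPM at 1 h to 31.4 CPM at 6 h, and overlapped the first.

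In a model of these 6 libraries with the time point as covariate, Khdc3 had a log2 fold change of 2.16 ± 0.35 in the second generation (SE; adjusted p = 0.144 in edgeR) and was not called. None of the members was called in this fit (0.0324% of 24665 genes), and 3 passed an unadjusted p under 0.05 (9.88% of all genes). DESeq2's Wald test called Khdc3 alone among the members (1.56% of 18188 genes), with a log2 fold change of 2.17 and an adjusted p of 2.79e-08. edgeR called it as well without the filter on low counts (adjusted p = 7.65e-12), and in a fit of all 8 libraries of 0.5 Gy that was added after the data were seen (2.23, adjusted p = 0.0286). Both of these fits also called many more genes in total than the main fit, with the counts given under the dependence on the processing. Leaving out replicate 1 or replicate 2 of 0 h gave 2.64 in either case, and the call in edgeR depends on these libraries. These are not separate checks, because the 0 h library that remains is fitted by its own time coefficient. Both values therefore rest on the libraries of 1 and 4 h. When the reads of Khdc3 and Gm20509 were added up the value was 2.35 (adjusted p = 0.104 in edgeR). Gm20509 itself had 0 reads in each first-generation library, where up to 3 reads are compatible with that count, and 123 to 197 reads in the second generation.

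The remaining members differed less. Ooep had a log2 fold change of -0.37 ± 0.15 (SE; adjusted p = 0.491 in edgeR). Padi6 had 0.38 ± 0.16 (SE; adjusted p = 0.502 in edgeR) and Zbed3 0.59 ± 0.26 (SE; adjusted p = 0.519 in edgeR). Without either 0 h library Zbed3 had 0.98, just under the fold change needed for a call, and here too both fits rest on 1 and 4 h. Nlrp2, Nlrp14, Nlrp5 and Tle6 had values between 0.03 and 0.44. Over 3 first-generation and 5 second-generation libraries, 2 of the 8 members did not overlap in CPM, as did 9.2% of all genes: Khdc3 was higher (4.14% of all genes were) and Ooep lower (5.06% were). The immune markers stood at 347 TPM in the second-generation library of 0 h and between 15.9 and 33.9 TPM in the first generation, and the germ cell and oocyte markers summed to 1581 to 1729 TPM in the first and 1731 to 2174 TPM in the second generation. The part of these markers in the differences was not tested. With the scale set by the germ cell and oocyte markers in place of TMM, the value of Khdc3 was 1.93 and that of Ooep -0.59. Over the alternatives that left no library out, the value of Padi6 lay between 0.16 and 0.53 and that of Zbed3 between 0.37 and 0.60.

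The generations also differed in the transcripts to which the reads of the members were assigned. Zbed3 has alternative first exons: Zbed3-202 begins at chr13:95323612 and Zbed3-201 at chr13:95325237, and both code for protein and end at the same base. In the first generation, Zbed3-201 held 62.6% of the reads of the gene at 0 h, 55.5% at 1 h and 68.0% at 4 h. In the second generation its share was between 20.8% and 34.8%, and at 0.2 Gy between 14.1% and 39.9%. The share of Zbed3-202 was correspondingly between 31.7% and 44.3% in the first generation, between 65.1% and 78.9% in the second and between 60.0% and 85.6% at 0.2 Gy. As levels, Zbed3-201 had 74.0 to 118 CPM in the first and 51.0 to 56.2 CPM in the second generation, while Zbed3-202 had 70.4, 59.1 and 35.6 CPM at 0, 1 and 4 h in the first generation and 201 CPM at 1 h and 174 CPM at 4 h in the second, where its lowest value also lay above 70.4 CPM. The 2 transcripts thus differed in opposite directions between the generations.

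The 100 bases before the RefSeq start of Zbed3-202, at chr13:95323605, are shown because this transcript was the higher one in the second generation. They hold no E-box within them and none of the other motifs in the exact letters searched, so nothing is in capitals. The stretch tatataag was not counted, since the TATA box was searched only as TATAAA. The bases are given 5′ to 3′ on the plus strand:
Zbed3, chr13:95323505-95323604, plus strand: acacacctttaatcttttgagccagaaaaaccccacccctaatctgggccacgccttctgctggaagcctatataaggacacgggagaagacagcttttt

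Khdc3 showed the same separation. Khdc3-201 held 95.1%, 89.8% and 90.9% of its reads at 0, 1 and 4 h in the first generation, 36.2% to 75.2% in the second and 48.5% to 64.4% at 0.2 Gy. Khdc3-202 had 0 reads in all 3 first-generation libraries, against 107 to 619 reads in the second generation and 57.4 to 179 reads at 0.2 Gy. Khdc3-204 held 4.94% to 8.62% in the first generation, 11.2% to 32.3% in the second and 15.5% to 40.2% at 0.2 Gy. In Nlrp14 the short model Nlrp14-202 held 17.7%, 12.5% and 10.3% of the reads at 0, 1 and 4 h in the first generation, 1.17% to 5.37% in the second and 0.997% to 2.95% at 0.2 Gy. The total of Nlrp14 hardly moved meanwhile, between 1220 and 1728 CPM in all libraries. In Padi6 the full-length Padi6-201 held 92.3% to 96.4% in the first generation, 89.0% to 91.5% in the second and 87.8% to 89.9% at 0.2 Gy.

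Of the 20 transcripts of members with 2 or more transcripts that held at least 5% of their gene's reads on average, 9 did not overlap between the first and the second generation, from 5 of 7 genes (Khdc3, Nlrp14, Padi6, Tle6 and Zbed3). Among all 29409 transcripts under the same minimum 11.9% did not overlap, and 23.1% of 10567 genes had at least 1 such transcript. When the 0.2 Gy libraries were added to the second generation, 8 of the 20 remained apart from the first generation, beside 6.65% of all transcripts, and the same 5 genes held them, beside 13.8% of all genes. Shares within a gene add up to a fixed sum and are not independent, and this comparison was chosen after the values were seen, so it carries no test. Nlrp5 and Nlrp2 had no transcript that was separated in this way. The median difference between the length and the effective length of transcripts, which reflects the fragment lengths and biases that salmon estimated, was 309 to 322 bases in the first generation, 278 to 374 in the second and 274 to 318 at 0.2 Gy, and its part in the shares was not tested.

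**Figure D4:**
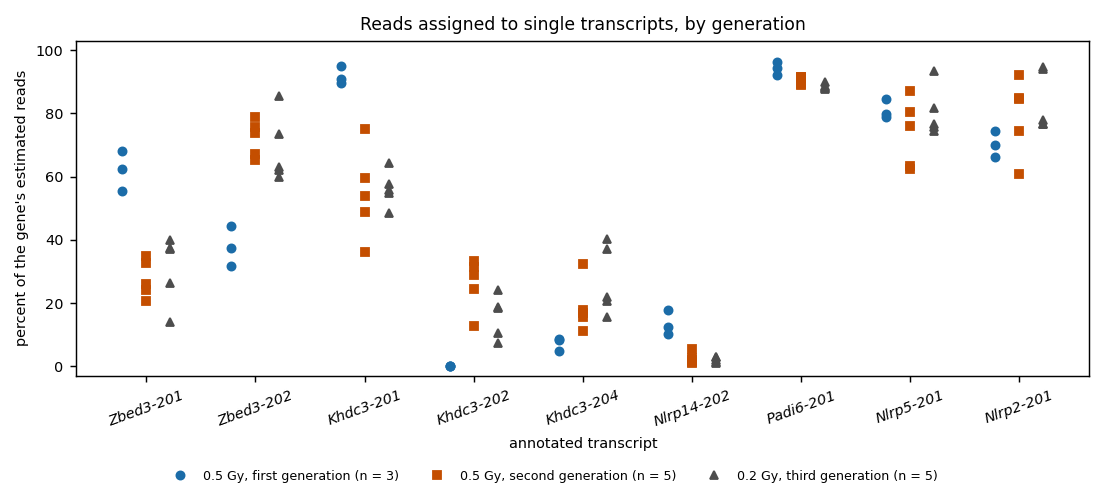
Percent of a gene's estimated reads assigned to single annotated transcripts, 1 symbol per library coloured by generation. The first generation stands apart for Zbed3-201, Zbed3-202, the Khdc3 transcripts, Nlrp14-202 and Padi6-201, and overlaps the others for Nlrp5-201 and Nlrp2-201.

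The third comparison set the 5 libraries of 0.2 Gy against the 8 of 0.5 Gy with the time point as covariate, where dose and generation cannot be told apart. None of the members was called by edgeR or DESeq2 (0.00351% of 28493 genes in edgeR and 0.974% of 22786 in DESeq2), and 1 passed an unadjusted p under 0.05 (11.5% of all genes). This was Padi6, with a log2 fold change of -0.33 ± 0.14 (SE; adjusted p = 0.408 in edgeR). Its value lay between -0.35 and -0.19 over the alternatives that left no library out, with -0.19 when scaled to the germ cell and oocyte markers. Nlrp5 had 0.73 ± 0.37 (SE; adjusted p = 0.474 in edgeR) and Khdc3 -0.88 ± 0.46 (SE; adjusted p = 0.485 in edgeR). No member was separated between the courses in CPM (0.892% of all genes were). When single libraries were left out, the value of Nlrp5 lay between 0.39 and 1.13 and that of Khdc3 between -1.07 and -0.59. At 0 h, Nlrp5 had 2286 CPM in the library of 0.2 Gy and 806 ± 23.8 CPM (SD, n = 2) at 0.5 Gy. The order was the reverse at 2.5 h, with 424 CPM at 0.2 Gy and 1647 CPM at 0.5 Gy. At 1, 4 and 6 h the library of 0.2 Gy was again above those of 0.5 Gy.

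The members did not move as a block over the 13 libraries. Among the 28 pairs, Pearson's r of log2 CPM ranged from -0.57 to 0.77 with a median of 0.22, and 7 pairs exceeded 0.5. The closest pairs were Khdc3 and Zbed3 (r = 0.77, Spearman's rho = 0.78, and r = 0.72 without the 2 libraries farthest from the median of Khdc3) and Zbed3 and Nlrp2 (r = 0.73, rho = 0.73). For Khdc3 and Zbed3, r was 0.84 over the 8 libraries of 0.5 Gy. Ooep and Padi6 were opposed (r = -0.57, rho = -0.56), but r was -0.28 without the 2 libraries farthest from the median of Ooep, while over the 8 libraries of 0.5 Gy it was -0.86 and over the 5 of 0.2 Gy -0.41. Nlrp5 and Ooep, partners in the core, had r = -0.46 and rho = -0.44. Libraries share a generation or a time, and whether they share a preparation is not stated, so these values are descriptions across 13 points that are not independent.

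The mean log2 CPM of the members was lowest in the 4 h library of the first generation (7.34) and highest at 6 h of 0.5 Gy (8.26). Of 15051 protein-coding genes with a mean of at least 1 CPM, the 5 most like this mean over 13 libraries were Hdc (r = 0.94, rho = 0.87), the histidine decarboxylase, Reep4 (r = 0.89, rho = 0.93), Dnajb1 (r = 0.89, rho = 0.88), a heat shock cochaperone, Car9 (r = 0.88, rho = 0.91), a carbonic anhydrase, and Efcab6 (r = 0.87, rho = 0.85). Without the 2 libraries farthest from the median, r was between 0.82 and 0.92 for these genes. The median r of all genes compared was 0.08. Over only the 8 libraries of 0.5 Gy, 2 of the 5 stayed among the 5 most like the members.

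Relatives of the members were compared to see whether the families behaved alike. Of 57 genes in 7 lists, between 53 and 56 were tested in each comparison and none was called in any of the 9 comparisons by edgeR. At an unadjusted p under 0.05, between 2 and 11 of them passed: 3.6% at 1 h (3.98% of all genes), 8.9% at 2.5, 4 and 6 h (5.59% to 5.94%), 13.2% in late against early at 0.5 Gy (9.06%), 14.3% at 0.2 Gy (7.29%), 19.6% in the difference between the doses (8.14%), 14.5% between the generations (9.88%) and 8.9% between the courses (11.5%). Among other oocyte NLRP genes, Nlrp4f was the most abundant (mean 119 TPM, 81.5 to 166), about as high as Nlrp14, followed by Nlrp4g (12.2 TPM) and Nlrp4b (5.30 TPM). In late against early at 0.5 Gy, the 10 genes of that list had a median log2 fold change of -0.30 and none passed an unadjusted p under 0.05 (9.06% of all genes), and at 0.2 Gy the median was 0.52 and 1 passed (7.29%). NLRP and related genes of immune cells and other tissues were low, led by Nlrc5 (3.82 TPM), Nlrx1 (0.799 TPM) and Nlrp10 (0.448 TPM).

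Among the KH-domain relatives, Dppa5a was the highest (mean 199 TPM, 155 to 251), above Khdc1b (45.2 TPM) and Khdc1a (3.8 TPM). Their median in late against early at 0.5 Gy was -0.57, beside -0.02 over all genes, and 2 of 4 passed an unadjusted p under 0.05 (9.06% of all genes). Of these, Khdc1a had -1.12 ± 0.23 (SE; adjusted p = 0.131 in edgeR) and was not called. In the same comparison the median was -0.91 for the immune markers (4 of 9 at an unadjusted p under 0.05), 0.50 for the red blood cell markers (1 of 5), -0.20 for the stroma and theca markers (1 of 10), -0.12 for the endothelial markers (0 of 5), -0.04 for the germ cell and oocyte markers (2 of 15) and -0.03 for the granulosa cell markers (0 of 15). Their part in the values of the gene lists was not tested. At 0.2 Gy the median of the list was 0.27. The corepressor list was led by Tle5 (mean 112 TPM, or 29.5 TPM without models of an effective length under 100 bases), Tle2 (11.2 TPM) and Tle4 (5.33 TPM), and the ZBED list by Zbed5 (5.16 TPM), Zbed4 (1.37 TPM) and Zbed6 (0.279 TPM). The other deiminases had reads at lower levels than Padi6, with means of 0.973 TPM for Padi4, 0.427 TPM for Padi2 and 0.113 TPM for Padi3.

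Among other maternal effect genes, Dppa3, which protects methylation in the zygote, had a mean of 1528 TPM (1095 to 1981), followed by the oocyte linker histone H1f8 (128 TPM) and Omt2b (65.9 TPM, or 10.1 TPM without such short models). In late against early at 0.5 Gy the median of the 20 genes was -0.29, with 3 at an unadjusted p under 0.05 (9.06% of all genes), and at 0.2 Gy it was 0.65, with 6 (7.29% of all genes). In the difference between the doses the median was 0.77 and 8 of 20 passed an unadjusted p under 0.05 (8.14% of all genes), but the smallest adjusted p was 0.502 in edgeR and none was called. The median of the 8 members in the same test was 0.37, with none at an unadjusted p under 0.05. Beside -0.05 over all genes, the markers had medians of 0.15 (germ cell and oocyte), 0.37 (granulosa cell), 0.51 (stroma and theca), 1.00 (immune), 0.10 (endothelium) and 0.10 (red blood cell), and their part in these differences was not tested. Between the second and the first generation, the maternal effect list had a median of -0.08.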

How the data were processed

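RNA-seq libraries of irradiated mouse oocytes were analysed. The authors ran salmon on 30-base reads against the Ensembl transcripts of GRCm38. Each of the 13 deposited files holds salmon's estimated counts and TPM for 130740 transcripts, neither normalized between libraries nor filtered. The labels also name DESeq2 1.24.0. The deposited comparisons (fold changes and p-values) and a table of normalized values merged over replicates were not used.

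Estimated counts were summed per gene of the GENCODE annotation of GRCm38 (49585 genes, 402 transcripts without a gene left out, at most 0.495% of reads) and rounded. Tests used edgeR 4.0.16 (TMM, filterByExpr, quasi-likelihood, Benjamini-Hochberg over all genes tested) in R 4.3.3, with DESeq2 1.42.0 as an alternative, and the scripts ran in Python 3.11.15 with pandas 2.3.3. A prior count of 2 entered log2 CPM. The fits were tested on simulated counts with 200 changed genes. Transcript shares needed 50 reads of the gene in each library.

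The members and lists were chosen with earlier results of these data known. All 8 members are named. From each list, genes called in a comparison or otherwise the 3 with the highest mean TPM are named, with the 5 protein-coding genes most like the members. The alternatives were other size factors, filters, gene sums and tests, leaving out each library, and a block for generation.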

Additional observations from a re-analysis of the deposited data

How the results depend on the processing

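None of the 18 fold changes named for single members turned its sign under an alternative, and the number of members called stayed at 0 in 8 of 9 comparisons under all of them. For the second against the first generation it was 1, Khdc3, without the filter on low counts, with DESeq2 and with all 8 libraries of 0.5 Gy, and between 0 and 1 when each library was left out in turn. The cause was not tested. Among all genes, that comparison called 8 with edgeR, 462 without the filter, 284 with DESeq2 and 81 with all 8 libraries. DESeq2 called 251 genes in late against early at 0.5 Gy and edgeR 29. Scaling to the germ cell and oocyte markers moved the median of all genes by -0.22 between the generations at 0.5 Gy, -0.13 at 2.5 h and 0.13 between the courses. In TPM, 3 members (Khdc3, Ooep and Padi6) did not overlap between the generations, as did 11.3% of all genes. Padi6 was above Tle6 in 13 libraries in TPM and per kilobase of the longest transcript and in 11 without short models. Of the 5 genes most like the members, 2 stayed over the 8 libraries of 0.5 Gy.

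The replicate numbers were not taken as pairs, since the deviations of same-numbered libraries from their time means correlated by 0.13, 0.08 and 0.11. These correlations are over all genes that passed the filter, and a single gene such as Khdc3 did differ between the generations at every shared time. With generation as a replicate block no member was called, and late against early at 0.5 Gy called 18 genes in place of 29. For the second against the first generation, no replicate block (time left out) gave 0 members and 34 genes.

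Nlrp2 (50 to 476 reads) and Khdc3 (169 to 1850 reads) had the fewest reads among the members. How far depth limits their values was not tested.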
